A study of Homo sapiens with 4 samples.

Results

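Metallothioneins are small, cysteine-rich proteins that hold zinc and copper in the cytosol and take up cadmium and other toxic metals. Their genes are switched on by the zinc-sensing transcription factor MTF1, which binds short metal response elements in their promoters, and they are also known to respond to glucocorticoids and to oxidants. In human epithelial cells MT2A is usually the most abundant member, whereas the MT1 genes are a group of close copies that differ in how strongly each is used.

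Here 6 human metallothionein genes (MT2A, MT1X, MT1E, MT1F, MT1G and MT1M) were followed through single MCF10A cells, out of 19577 genes with a row in at least 1 of the 4 plates. They were taken by name, and the group was selected on the Spearman rho of MT2A with the score for epithelial-to-mesenchymal transition (EMT) in these same cells, so every value that sets a member against that score is a description and carries no test. Of the 6 genes, 4 (MT2A, MT1X, MT1E and MT1F) had a row in every plate. MT1M had a row in 1 plate, with 1 transcript in 1 of 291 cells (0.344%, exact binomial 95% interval 0.0087% to 1.9%). MT1G was not analysed here. The other metallothionein rows (MT1B, MT1DP, MT1HL1, MT1JP and MT1L) were close to empty, with 9 transcripts in all cells together.

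MCF10A is an untransformed human breast epithelial line, and its MCF10A_H2B_GFP derivative carries a histone fused to green fluorescent protein in the nuclei. In all 4 samples 10000 cells were seeded as 1 round patch on fibronectin and grown for 6 days in medium with horse serum, 20 ng/ml EGF, 10 μg/ml insulin, cholera toxin and 500 ng/ml hydrocortisone, a glucocorticoid that is thus shared by both groups. In both groups cells were then incubated with photoactivatable dyes, and chosen bands were lit to mark cells by their place in the patch. Cells were sorted alive into a 384-well plate. In the low resolution group (plates L1 and L2, by replicate number) the marked bands were 1000 to 1500 μm wide, and in the high resolution group (H1 and H2) they were 250 μm wide. Which region a well came from was not analysed here. The 2 groups differ in the regions that were sorted, in the width of the bands that were lit, in the patches and in the plates, and these cannot be told apart. No source used here gives another treatment that differs between the groups.

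Transcripts were counted by SORT-seq, a plate-based method in which 1 end of each transcript is read with a unique molecular identifier (UMI). Values are therefore molecules and were not divided by gene length. A total of 1146 of 1536 wells passed the study's limits (291 of L1, 271 of L2, 291 of H1 and 293 of H2), with median depths of 30520 to 41248 counts per cell. The study reports more analysed cells in each group under the same stated limits. The cells kept here are thus not the study's set, and the reason was not tested. The plate is the replicate throughout, and nothing says how far plates of 1 group shared a culture, so p-values measure the spread between these plates only. The label of a basal-like breast line was set against fixed markers. KRT5, KRT17 and EGFR were found in 99.6% to 100%, 92.1% to 96.9% and 78.4% to 83.6% of cells. KRT14 varied more between plates, with 43.9% to 77.3% of cells, and TP63 was found in only 2.58% to 4.12%. Of the markers of other cell types, ESR1, PGR, COL1A2, PDGFRB and PTPRC reached at most 3.78% of cells in any plate, whereas PECAM1 (28.5% to 47.1%) and COL1A1 (17.3% to 27.6%) were more frequent. By its file name L1 was sequenced on a flow cell of its own, whereas L2, H1 and H2 shared 1.

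All 6 genes lie within 75.6 kb of chromosome 16 (GRCh38.p14, RefSeq). MT2A comes first at chr16:56608584-56609497, followed by MT1E at chr16:56625781-56627112, MT1M at chr16:56632659-56633981, MT1F at chr16:56657959-56659303, MT1G at chr16:56666730-56668065 and MT1X at chr16:56682470-56684196. The promoters of MT2A and MT1X, the first and last of the 6 genes by position, are shown because these genes were called in opposite directions between the groups. The promoter table used here gave no entry for the other members. The 250 bases before each start site (RefSeq, GRCh38.p14, plus strand, chr16:56608334-56608583 for MT2A and chr16:56682220-56682469 for MT1X) were searched for the core of the metal response element, written TGCACNC or TGCGCNC, on both strands. Capitals mark the matches, which appear as the reverse complement where they lie on the minus strand, and none of them overlap.

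MT2A: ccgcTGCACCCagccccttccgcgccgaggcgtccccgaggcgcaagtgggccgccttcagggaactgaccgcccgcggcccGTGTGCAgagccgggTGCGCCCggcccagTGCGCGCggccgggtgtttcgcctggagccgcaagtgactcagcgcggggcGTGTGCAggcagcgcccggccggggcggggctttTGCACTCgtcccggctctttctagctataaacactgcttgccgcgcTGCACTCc
MT1X: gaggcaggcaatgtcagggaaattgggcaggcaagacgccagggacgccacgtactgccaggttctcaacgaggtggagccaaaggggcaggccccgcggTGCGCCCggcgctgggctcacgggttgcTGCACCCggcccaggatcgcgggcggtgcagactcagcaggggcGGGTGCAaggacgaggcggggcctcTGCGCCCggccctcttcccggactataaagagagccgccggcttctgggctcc

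The MT2A window held 7 matches and the MT1X window held 4. Among all 35116 promoter windows of this length, 24.8% held at least 1 match, 0.37% held 4 or more and 0.0313% held 7 or more. Both promoters are thus dense in these letters, and a match is no evidence of binding in these cells.

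MT2A was by far the most abundant member. Its mean level was 24.4 ± 8.0 counts per 10000 (SD, n = 4 plates), against 1.73 ± 0.413 for MT1E, 1.01 ± 0.257 for MT1X and 0.129 ± 0.0265 for MT1F, and the 4 genes kept this order in each of the 4 plates. MT2A made up 89.8% ± 2.51 of the counts of the 4 genes, MT1E 6.28% ± 0.818, MT1X 3.45% ± 1.82 and MT1F 0.453% ± 0.0654 (SD, n = 4 plates). MT1E and MT1X were close in level in L1 (1.38 against 1.30 counts per 10000) and L2 (1.44 against 1.12) and further apart in H1 (1.83 against 0.702) and H2 (2.28 against 0.913). A transcript of MT2A was found in 97.6%, 99.6%, 100% and 100% of the cells of L1, L2, H1 and H2, the order used for every set of 4 values from here on. MT1X was found in 80.4%, 80.1%, 74.6% and 83.6% of cells and MT1E in 68.7%, 70.5%, 82.1% and 85.7%. MT1F was found in only 22.0%, 25.5%, 35.7% and 40.3%, and its level in most single cells lay below what 1 transcript gives.

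**Figure D1:**
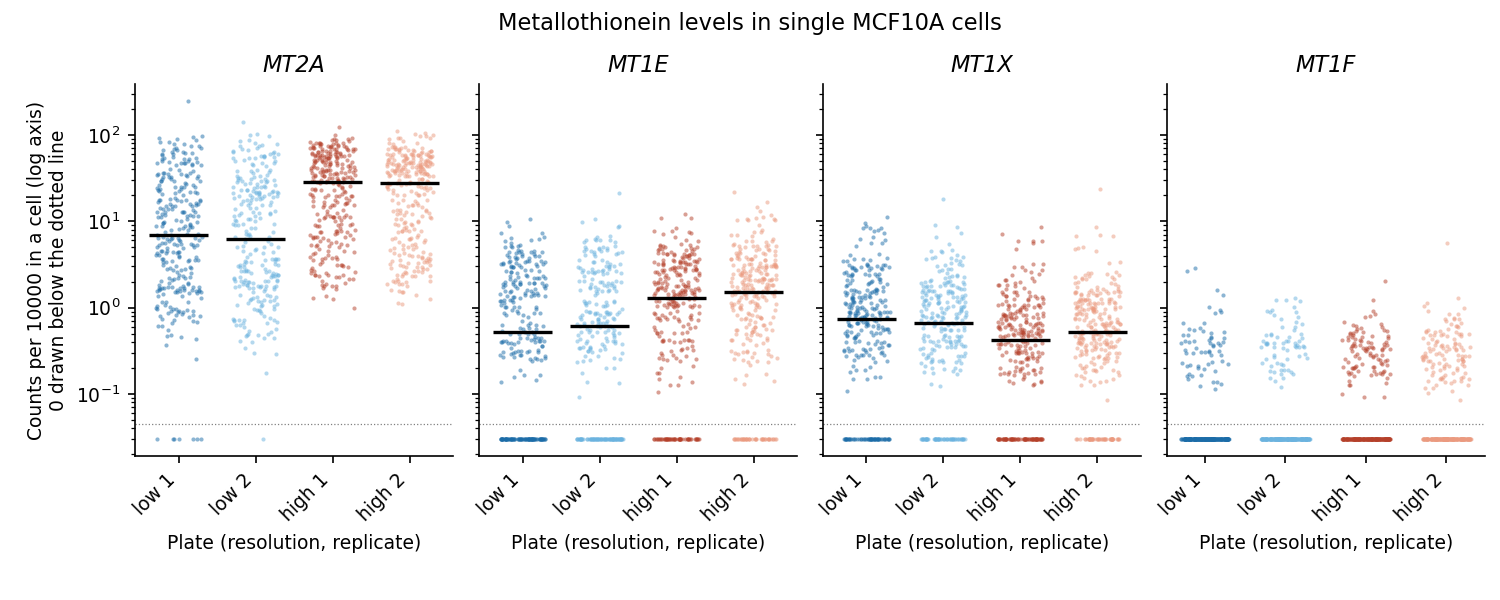
Level of each member in single cells (counts per 10000, log axis) in L1, L2, H1 and H2 (named by resolution and replicate). Each point is 1 cell, the black line is the median of a plate where it is above 0, and cells with no transcript are drawn below the dotted line. MT2A spans from about 1 or less to over 100 counts per 10000 in every plate, and its median is higher in the high resolution plates, whereas that of MT1X is lower.

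Cells of 1 plate differed widely in MT2A. In L1 its level ran from 0 through a median of 7.0 to 247 counts per 10000, and in L2 from 0 through 6.14 to 139.03. In H1 it ran from 0.976 through 28.6 to 122, and in H2 from 1.10 through 27.6 to 112. The cell at the 90th percentile thus held 58.7, 73.8, 23.2 and 22.8 times the level of the cell at the 10th percentile. The plates differed more at the lower end, with 10th percentiles of 0.885, 0.727, 3.01 and 2.81, than at the upper end, where the 90th percentiles were 51.9, 53.7, 69.9 and 64.0.

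MT2A was among the most variable genes of these cells. By analytic Pearson residual variance, which sets the spread of a gene against that of counts at its mean level, it ranked 3rd, 4th, 5th and 12th of 8032 genes that 20% or more of the cells held in each plate. MT1E ranked between 65 and 127, MT1X at 320 or better in every plate, and MT1F between 935 and 5782. With every cell thinned to 10000 UMIs, the 10% of cells with the most MT2A held 43.0%, 42.1%, 25.3% and 26.0% of its molecules. The 7 cells of L1 without MT2A had 10952 to 26275 counts each, and 6 of them held a transcript of another member. The cell at 247 counts per 10000 stood alone in its plate, where the next reached 95.7.

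MT2A and MT1E rose and fell together from cell to cell, whereas MT1X and MT1F followed them loosely. The Spearman rho between MT2A and MT1E was 0.765 as a mean of 4 plates, and it lay between 0.750 and 0.793. MT1X had a mean rho of 0.335 with MT1E (0.228 to 0.408) and of 0.324 with MT2A (0.186 to 0.461). MT1F had a mean rho of 0.351 with MT2A (0.254 to 0.427) and of 0.244 with MT1E (0.123 to 0.343). MT1X and MT1F had the lowest rho of the 6 pairs, 0.119 (-0.0061 to 0.186). All pairs of a plate share the same cells and depths, and rare transcripts lower a rho by sampling alone: at 10000 UMIs per cell, MT2A with MT1E fell to 0.666, and the other pairs lay between 0.0508 and 0.257. In a ranking of 8031 genes by their mean rho with MT1E, MT2A came first (the next was EMP3, 0.617), and in that by MT1X, MT1E and MT2A came first and second although both values were low.

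The members' transcripts are alike in sequence, so part of their counts could have been assigned to the wrong copy. Of the 341 stretches of 60 bases in the last 400 bases of each main transcript (GENCODE v29), 4.4% of those of MT2A, 5.87% of those of MT1E and 2.64% of those of MT1F occurred in a transcript of another gene. In MT1X 44.3% did so, most of them in AC026461.1 (30.2%) or MT1G (10.9%). Only 1.17% of the MT1X stretches occurred in MT2A, and MT2A and MT1E shared none. Exact matches alone were counted, so the part of wrongly assigned reads in the rho of 0.765 was not tested. By this measure alone, the assignment of counts to MT1X is the least certain of the 4.

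Next, the members were set against the EMT score, the mesenchymal (M) minus the epithelial (E) score of a cell, from the study's gene lists, of which 97 to 100 M genes and 64 E genes were found. No member is in either list. MT2A had a rho with the score of 0.777, 0.797, 0.746 and 0.730, the values on which the group was selected. Across all other genes in the ranking, 2.53% had a rho of at least 0.3 with the score in all 4 plates. MT1E also met this limit (0.582, 0.717, 0.609 and 0.653). MT1X (0.359, 0.381, 0.257 and 0.236) and MT1F (0.233, 0.362, 0.250 and 0.317) did not. MT2A followed the E score (mean rho -0.80, -0.825 to -0.774) more closely than the M score (0.602, 0.540 to 0.631).

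**Figure D2:**
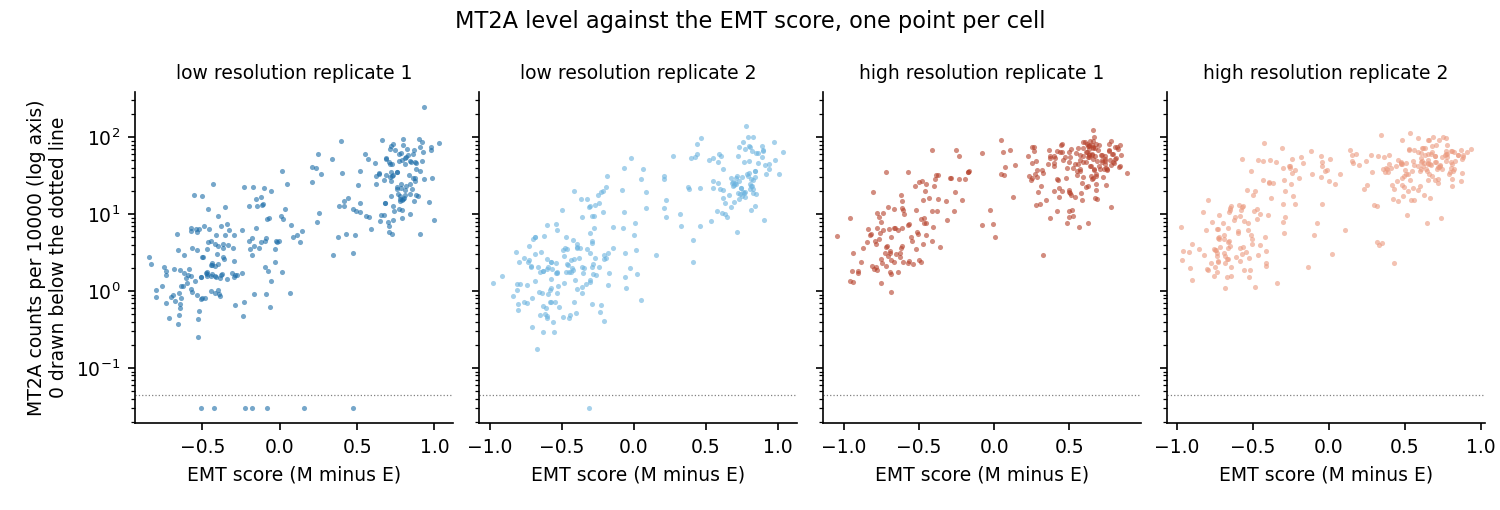
MT2A level (counts per 10000, log axis) against the EMT score in the 4 plates. Each point is 1 cell, and cells with no transcript are drawn below the dotted line. Cells with a score under 0 mostly lie below 20 counts per 10000 and cells with a high score mostly above 5, with rho of 0.777, 0.797, 0.746 and 0.730 from left to right.

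The cells of each plate were cut by EMT score into 3 sets of like size, and the level of MT2A climbed over them. In L1 its mean was 3.06 counts per 10000 in the lower, 12.3 in the middle and 38.3 in the upper set, and in L2 it was 2.26, 11.8 and 37.1. In H1 it was 8.0, 35.4 and 52.5, and in H2 it was 8.42, 32.8 and 50.5. The upper set thus held 12.5, 16.4, 6.56 and 6.0 times as much MT2A as the lower set, and in H1 and H2 most of the step lay between the lower and the middle set. MT1E differed between the upper and the lower set by 6.58, 11.8, 6.29 and 6.47 times.

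MT1X had another course. Its mean climbed from 0.674 through 1.14 to 2.07 counts per 10000 in L1 and from 0.573 through 1.01 to 1.77 in L2, whereas it was highest in the middle set in H1 (0.378, 1.07 and 0.657) and H2 (0.516, 1.21 and 1.01). The medians had this peak neither in H1 (0.197, 0.526 and 0.577) nor in H2 (0.402, 0.498 and 0.698). The share of cells with MT1X also climbed in H1 (63.9%, 75.3% and 84.5%) and H2 (76.3%, 81.6% and 92.9%). Of the counts of the 4 genes, MT1X made up 14.8%, 16.2%, 3.67% and 4.32% in the lower set and 4.08%, 3.26%, 1.15% and 1.73% in the upper set.

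**Figure D3:**
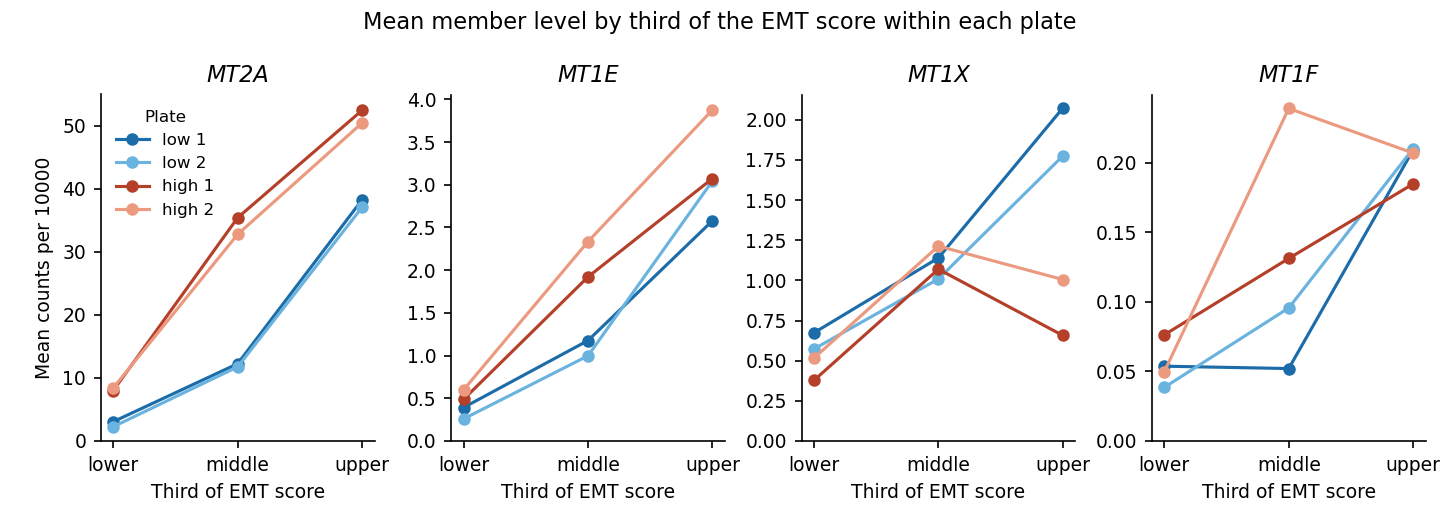
Mean level of each member (counts per 10000, axes from 0) in the lower, middle and upper set of cells by EMT score. Each line is 1 plate, named by resolution and replicate, and the sets were cut within a plate. MT2A and MT1E climb in all 4 plates, whereas MT1X climbs in L1 and L2 (to 2.07 and 1.77) and turns down after the middle set in H1 and H2 (to 0.657 and 1.01).

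The relation was weaker within a set, where cells span a narrower range of the score, and a narrower range by itself lowers a rho. The mean rho of MT2A with the score was 0.315 within the lower, 0.313 within the middle and 0.186 within the upper set, and that of MT1E was 0.0998, 0.245 and 0.203. MT1X had a mean rho of 0.0627, 0.159 and -0.151, and it was below 0 in the upper set of all 4 plates (-0.225 to -0.0844). MT1F had a mean rho of 0.155, 0.0661 and 0.151. MT2A and MT1E still went together within sets, with mean rho of 0.444, 0.607 and 0.530.

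The single EMT markers below are in the study's E and M lists and so are parts of the score. With them MT2A had the values farthest from 0, followed by MT1E, a ranking that is not independent of how the group was selected. MT2A had a mean rho of 0.565 (0.466 to 0.649) with VIM, the intermediate filament of mesenchymal cells, and of 0.526 (0.448 to 0.601) with FN1, the matrix protein fibronectin. Its mean rho was -0.572 (-0.602 to -0.514) with CDH1, the adherens junction protein E-cadherin, and -0.509 (-0.566 to -0.433) with EPCAM, an epithelial adhesion molecule. MT1E had mean rho of 0.453, 0.432, -0.495 and -0.408 with VIM, FN1, CDH1 and EPCAM. MT1X followed FN1 (0.272) more than VIM (0.123), and its values for CDH1 and EPCAM were -0.293 and -0.286. MT1F had mean rho of 0.222, 0.206, -0.166 and -0.165 with VIM, FN1, CDH1 and EPCAM, so that it lay above MT1X for VIM and nearer to 0 for the others.

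MT2A also moved with measures of the state and the quality of a cell. It was lower in cells with a high share of mitochondrial counts (mean rho -0.521, -0.617 to -0.391), as was MT1E (-0.428). In the 33 to 50 wells per plate above the limit of 40% mitochondrial counts, MT2A made up 3.87, 2.58, 7.19 and 5.23 counts per 10000, against 19.1, 18.2, 32.0 and 32.5 in the wells that passed (counts of a plate summed). MT2A was higher in cells with a high G2/M score (mean rho 0.407, 0.301 to 0.486) and S score (0.299), and its rho with the EMT score was 0.756 with both cell cycle scores regressed out. It had little relation to the depth of a cell (mean rho 0.119). The part of mitochondrial share in the relation to the EMT score was not tested.

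Outside the metallothioneins, 476 of 8028 genes followed the summed level of the 4 members with a rho of at least 0.3 in size and 1 sign in all 4 plates (291 upward, 3.62%, and 185 downward, 2.30%). The 10 highest mean values belonged to EMP3 (0.761), a membrane protein of the M list, ANXA5 (0.752), a phospholipid-binding annexin, LGALS1 (0.718), a galectin, NT5E (0.715), the surface enzyme CD73, TMSB10 (0.70), FLNA (0.680), PFN1 (0.675) and CFL1 (0.668), which act on the actin cytoskeleton, TGFBI (0.674), a matrix protein induced by TGF-beta, and SERPINE2 (0.646), a secreted protease inhibitor. Among the lowest were FXYD3 (-0.792), a modulator of the sodium pump, HSD11B2 (-0.725), the enzyme that turns cortisol into inactive cortisone, LGALS3 (-0.720) and CLDN7 (-0.719), a tight junction claudin. MT2A is 89.8% of the sum, so these values are in effect those of MT2A. At 10000 UMIs per cell 166 of the 4396 genes that could then be ranked reached the limit.

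Few genes of metal handling followed the summed level, at a share near that of all genes. Of 25 zinc genes (the sensor MTF1 and the exporter and importer families SLC30 and SLC39), 15 could be ranked, 1 followed the summed level upward and none downward, with a median rho of 0.0786 against 0.0416 over all genes. The one that followed was SLC39A14, a zinc and iron importer also known as ZIP14 (0.521, 0.531, 0.438 and 0.515 in the 4 plates). MTF1 had a mean rho of 0.0137 and SLC30A1, the zinc exporter that MTF1 is known to induce, of 0.0611, and both are values near that of the median gene. None of the 5 copper genes ranked (median rho 0.0806) and none of the 8 genes of metal and oxidant stress (median 0.114) followed in either direction. HMOX1, heme oxygenase, had a rho with MT2A of 0.302 as a mean of 4 plates (0.282 to 0.324).

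None of the 10 genes of the glucocorticoid list followed the summed level, near the share of all genes (3.62% upward and 2.30% downward). Their median rho was -0.0953, against 0.0416 over all genes. NR3C1, the receptor itself, had a mean rho of 0.262. TSC22D3, a well known glucocorticoid target, had a mean rho of -0.235 (-0.313 to -0.181), CEBPD of -0.204, FKBP5 of -0.118 and ZBTB16 of -0.0306. MT1X, a small part of the sum, had other signs. Its mean rho was 0.150 with FKBP5 (0.0894 to 0.203), 0.0865 with TSC22D3 (0.0591 to 0.133) and 0.108 with CEBPD (0.0899 to 0.157). MT2A had mean rho of -0.127, -0.250 and -0.215 with these genes. Of the list, only SGK1 had a mean rho below 0 with MT1X (-0.00537). Hydrocortisone was in the medium of all 4 patches, so no sample shows the members without it.

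Finally, the groups were compared on the summed counts of each plate's cells, given as CPM (counts scaled to the same plate total). In this fit across 12437 genes, edgeR's quasi-likelihood test with Benjamini-Hochberg adjustment called 6.26% of genes higher and 6.18% lower in the high resolution plates. Of the 4 members tested, 2 were called higher and 1 was called lower. MT2A stood at 1914 CPM in L1, 1823 in L2, 3203 in H1 and 3253 in H2. These pairs were tight and far apart, and the log2 difference was 0.82 (SE 0.10, adjusted p = 0.000483 by edgeR).

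MT1E stood at 138.9, 149, 179 and 228 CPM. Its log2 difference was 0.53 (SE 0.13, adjusted p = 0.0202 by edgeR). MT1X stood at 119, 93.9, 56.2 and 79.2 CPM, a difference in the other direction (log2 -0.61, SE 0.16, adjusted p = 0.0242 by edgeR). MT1F had 10.4, 10.8, 12.6 and 16.1 CPM and did not pass the test (log2 0.47, SE 0.19, adjusted p = 0.127 by edgeR). The median log2 difference of all genes was -0.02. The call of MT2A held with any single plate left out. That of MT1E was lost without L1 (adjusted p = 0.108 by edgeR) or H2 (0.174), and that of MT1X without L1 (0.134) or H1 (0.160).

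**Figure D4:**
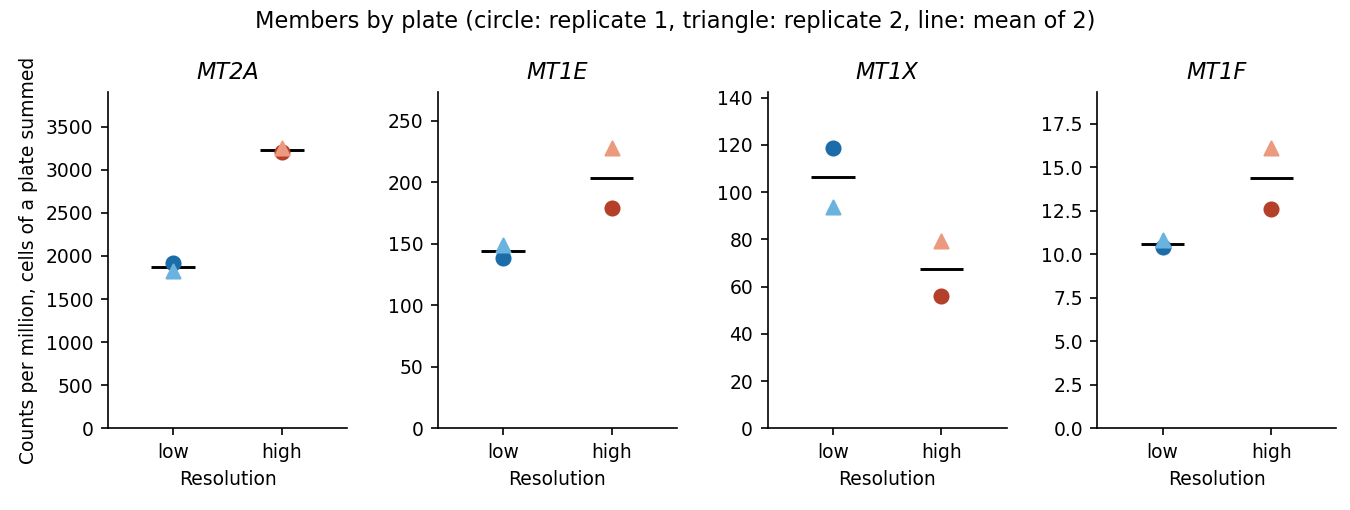
CPM of each member from the summed counts of each plate, in the low and high resolution plates (axes from 0). Circles are replicate 1, triangles are replicate 2 and lines are the means of 2 plates. MT2A, MT1E and MT1F lie higher in both high resolution plates (MT1F did not pass the test), and MT1X lies lower.

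MT2A and MT1X were thus called in opposite directions. The ratio of the mean level of MT2A to that of MT1X was 13.8, 15.3, 45.6 and 33.5. With 2 plates against 2, an exact two-sided permutation test of this ratio cannot give a p below 0.333. Within the flow cell that L2 shares with H1 and H2, MT2A was higher by 0.82 (SE 0.13, adjusted p = 0.00529 by edgeR), MT1E had a log2 difference of 0.45 (adjusted p = 0.108) and MT1X one of -0.47 (adjusted p = 0.134), with the spread taken from the high resolution plates alone.

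The EMT markers moved in the same comparison. VIM (84.1, 68.8, 126 and 159 CPM) and FN1 (523, 422, 797 and 771) were called higher in the high resolution plates, with log2 differences of 0.94 (SE 0.13, adjusted p = 0.00117 by edgeR) and 0.77 (SE 0.11, adjusted p = 0.00127). CDH1 was called lower (74.2, 71.1, 44.8 and 43.7 CPM, log2 -0.68, SE 0.12, adjusted p = 0.00321), and EPCAM was not called (102, 110, 95.7 and 96.5 CPM, adjusted p = 0.566). Their part in the difference in MT2A was not tested. MT2A was higher in the high resolution plates in each set of cells by EMT score, for example 8.0 and 8.42 against 3.06 and 2.26 counts per 10000 in the lower set, but the sets were cut within a plate and hold different ranges of the score.

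The listed metal and steroid genes were read against the 6.26% of all genes called higher and 6.18% called lower. Among 18 zinc genes tested, 1 was called lower (SLC39A11, a zinc importer, log2 -1.04, SE 0.31, adjusted p = 0.0443 by edgeR) and none higher. None of the 8 copper genes was called in either direction. Of the 10 glucocorticoid genes, 3 were called lower and none higher: TSC22D3 (log2 -0.91, SE 0.13, adjusted p = 0.000935 by edgeR), ZBTB16 (-0.93, SE 0.17, adjusted p = 0.00493) and CEBPD (-0.57, SE 0.13, adjusted p = 0.0173). Among 8 stress genes GCLC, a subunit of the enzyme that starts glutathione synthesis, was called lower (log2 -0.56, SE 0.16, adjusted p = 0.0419 by edgeR) and none higher. HSD11B2 was called lower, with 648, 728, 278 and 251 CPM (log2 -1.35, SE 0.12, adjusted p = 0.000125 by edgeR).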

How the data were processed

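The values that the authors deposited are expected counts of UMIs per gene and well, raised for the chance that 1 UMI sequence was drawn repeatedly. They are not scaled and include spike-ins. Undoing that step, with 4096 possible UMIs, gave whole UMIs within 1e-09 for every value. According to the submitters' processing notes the tools were STAR 2.7.3a and Seurat 4 and the build was hg38. The members and gene lists were chosen with earlier results of these data known.

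Wells were kept if they held between 2000 and 9000 features and less than 40% of their counts was mitochondrial. Spike-ins were left out, and the counts of a cell were scaled to 10000 and log-transformed (natural log of 1 plus the value). Doublets were not called. All plates use the same 384 well barcodes, so shared barcodes do not mark shared cells. E and M scores came from an implementation of GSVA (Gaussian kernel, 1 fit per group of plates). Correlations are Spearman's, per plate, without p-values. Thinned values use 10000 UMIs per cell, which left out 16 cells. Named genes are the members, the EMT markers, the genes at the top (10) and bottom (5) of the ranking by mean rho with the summed member level, and listed genes that were called or followed that level. Of the genes at the bottom, 1 is not reported here. Values for MTF1, SLC30A1, NR3C1, FKBP5 and HMOX1, and the between-group values of HSD11B2, were added after they were seen.

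Groups were compared with edgeR 4.0.16 (TMM, filterByExpr) on expected counts summed per plate and rounded. Each standard error was derived from the fitted difference and the F value of its test. DESeq2 1.42.0 was an alternative, beside other size factors, no filter, a replicate block, thinning, other cell filters and each plate left out. Plate totals were 11709600 to 14992300 counts. Intervals cover counting error only. Regions of the patch were not compared, since the region of a well was not analysed here.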

Additional observations from a re-analysis of the deposited data

Results flagged for a closer look

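The mean level of MT1X changed from the middle to the upper set of cells by EMT score in opposite directions in the 2 groups. The ratio of its mean level in the upper to that in the middle set was 1.82 in L1, 1.76 in L2, 0.614 in H1 and 0.828 in H2. This difference between the groups was not tested. It was seen in means alone: the median and the share of cells with MT1X were higher in the upper than in the middle set in all 4 plates (medians of 0.526 and 0.577 in H1 and of 0.498 and 0.698 in H2). At 10000 UMIs per cell the ratios were 2.34, 1.45, 1.00 and 0.780, so that H1 no longer turned down. MT2A and MT1E showed no such split between the groups. No group held enough plates for a search for outlying samples.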

How the results depend on the processing

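Of 161 alternative values for 16 results, 130 were marked as the same. Among these, log2 differences kept their direction and side of the threshold, and rho values, levels and shares moved by less than 1 SD between plates. Counts of genes have no such limit, and 1050 and 2146 called genes, against 1547, were among the 130. The call of MT2A held in every alternative run and that of MT1F was made in none, and those of MT1E and MT1X were lost only when a plate was left out. Leaving out 1 plate gave 982 to 1172 called genes against 1547, and log2 differences of 0.82 to 0.83 for MT2A, 0.36 to 0.69 for MT1E, -0.87 to -0.39 for MT1X and 0.30 to 0.64 for MT1F. Replicate numbers did not pair the plates (correlation of deviations -0.0241), and with the replicate block 2023 genes were called, with log2 differences of 0.82 (MT2A), 0.53 (MT1E), -0.63 (MT1X) and 0.46 (MT1F) and the same calls among the members. DESeq2 called 1050 genes, and thinning gave 1070.

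Thinning to 10000 UMIs lowered the mean rho with the EMT score to 0.560 for MT1E and 0.164 for MT1F, the median rho of the 6 member pairs from 0.329 to 0.230, and the genes following the summed level from 476 to 166. With a limit on rho of 0.2 these were 1026 and with 0.4 they were 218. Without mitochondrial rows, mean levels were 33.7 (MT2A), 2.39 (MT1E), 1.42 (MT1X) and 0.180 (MT1F) counts per 10000, since each cell then holds fewer counts. Within the lower, middle and upper set of cells by EMT score the median rho of the pairs was 0.228, 0.182 and 0.0681. The rho with the score itself within these sets was an alternative chosen after seeing the data. It was 0.315, 0.313 and 0.186 for MT2A, 0.0998, 0.245 and 0.203 for MT1E, and 0.155, 0.0661 and 0.151 for MT1F. For MT1X it was 0.0627, 0.159 and -0.151, a reversal in the upper set that shrank to -0.0818 at 10000 UMIs per cell. Only 6 pairs could be formed, among the 4 members found in every plate. MT1F, with a transcript in at most 40.3% of the cells of a plate, is limited by depth.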

Other observations

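MT1X was also followed after its ranks were reduced by their fit on the ranks of MT2A in each plate. This step was chosen after the values above were seen. The ranks of the other genes were left as they were, so cells were not compared at like MT2A. The step by itself raises the rho of genes that run against MT2A and lowers that of genes that run with it. The highest mean rho over 4 plates belonged to MME, the surface peptidase CD10 (0.280, 0.242 to 0.313), C3, the central complement protein (0.274, 0.235 to 0.319), and PSAP, the precursor of lysosomal saposins (0.273, 0.165 to 0.402). All 3 had mean rho below 0 with MT2A (-0.297, -0.292 and -0.321). LOX, a collagen cross-linking enzyme, was also among the highest (0.248) and had a mean rho above 0 with MT2A (0.228). The lowest belonged to HMGA1, a chromatin protein of dividing cells (-0.248, -0.282 to -0.186), which had a mean rho of 0.555 with MT2A. Before this step, the mean rho with MT1X was 0.180 for MME, 0.174 for C3, 0.159 for PSAP, 0.310 for LOX and -0.0741 for HMGA1. At 10000 UMIs per cell the values after this step were 0.213 for MME, 0.236 for C3, 0.262 for PSAP, 0.151 for LOX and -0.265 for HMGA1. These are weak relations in sparse counts, given as values. Of the zinc importers, SLC39A8 had a mean rho of 0.223 with MT1X (0.129 to 0.324), whereas SLC39A14 had one of 0.504 with MT2A.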
